A study of Solanum lycopersicum with 9 samples.

Results

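Carotenoids are the yellow, orange and red pigments of plastids, and the 10 genes described here encode enzymes that build them, out of 34075 genes in the count table. The genes were chosen by identifier, as the enzymes of the core route: the phytoene synthases PSY1 and PSY2, the desaturases PDS and ZDS, the isomerases ZISO and CRTISO, the lycopene cyclases LCYB1, CYCB and LCYE, and the beta-carotene hydroxylase CrtR-b1. All 10 were counted in all 9 libraries and all 10 passed the filter on low counts. The measurements come from the locular tissue of tomato fruit of the dwarf cultivar Micro-Tom, the tissue that surrounds the seeds, at 6 days post anthesis. Fruits of 2 CRISPR lines of SlZFP2, c2.5 and c2.11, were set against the unedited wild type (WT), with 3 libraries each. SlZFP2 encodes a zinc finger transcription factor, and the series asked what changes early in the shaping of this tissue in the edited lines. Each library pooled the tissue of 6 fruits after the developing seeds were taken out. The labels give neither the edits that the lines carry nor whether the pools came from separate plants, so the p-values may measure only the spread between pools.

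Carotenoid synthesis starts in the plastid when phytoene synthase joins a pair of geranylgeranyl diphosphates, the step that is often limiting for the whole route. Desaturases and isomerases then turn colourless phytoene into red lycopene. At lycopene the route forks: epsilon-cyclase together with beta-cyclase leads to alpha-carotene and lutein, while beta-cyclase alone leads to beta-carotene, zeaxanthin, violaxanthin and neoxanthin, from which abscisic acid is cut. In green tissue these pigments serve photosynthesis and photoprotection, and in tomato several steps are shared between a copy used mainly in green tissue and a copy used mainly in ripening fruit or flowers.

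The libraries held 19963325 to 20727310 counts, and 22331 to 22960 genes were detected in each. Values below are normalized CPM, counts scaled to a common library size by TMM, a method that assumes most genes keep their level. A gene was called changed when the adjusted p of edgeR's quasi-likelihood test, over all 19358 genes tested, was under 0.05. No pair of libraries of a genotype agreed within sampling noise. AGL11 and MBP3, MADS genes of the ovule and locular tissue, were at 129, 127 and 110 CPM and at 378, 386 and 351 CPM in c2.5, c2.11 and WT. With both lines set against WT, AGL11 was called higher (log2 fold change 0.23 ± 0.06 SE, edgeR adjusted p = 0.00367). MBP3 was not called (edgeR adjusted p = 0.0704). The 4 epidermis markers, none of them at 0, summed to 74.1 to 84.4 CPM in c2.5, 73.9 to 107 CPM in c2.11 and 53.1 to 61.4 CPM in WT. SUT1, a sucrose transporter of the phloem, averaged 26.4 CPM in c2.5, 26.2 CPM in c2.11 and 18.8 CPM in WT. Its WT libraries had 26.4, 14.6 and 15.4 CPM and overlapped with the lines, and SUT1 was not called with both lines (edgeR adjusted p = 0.0522). The part of these other cell types in the results was not tested. The gene taken as SlZFP2, Solyc07g053570, had 15 to 31 counts in c2.5, 30 to 49 counts in c2.11 and 11 to 21 counts in WT, so its counts do not mark the lines as edited (log2 fold change 0.76 ± 0.31 SE with both lines, edgeR adjusted p = 0.0487).

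The carotenoid route did not move as a block: with both lines set against WT, 2 of the 10 genes rose, 5 fell and 3 were not called. Across all tested genes, 57.1% were called in this comparison, 28.5% higher and 28.6% lower, so 7 of 10 stands near a large background. The median log2 fold change of the 10 genes was -0.20, against 0.01 for all tested genes, and the median size was 0.56, against 0.30. CrtR-b1, at the end of the route, rose the most, and LCYE, at the entry of the lutein branch, fell the most. PSY1, PDS, ZDS and CRTISO also fell, although CRTISO turned round to an uncalled 0.051 when libraries were scaled by total counts, and CYCB rose. In 7 of the 10 genes the 6 line libraries and the 3 WT libraries did not overlap, 2 above WT and 5 below. Of all tested genes 49.5% showed no overlap, 24.6% with the lines above and 24.9% with the lines below. Under total count scaling 7 genes again did not overlap, 4 above WT (PSY2, LCYB1, CYCB and CrtR-b1) and 3 below (PDS, ZDS and LCYE), where 48.6% of all tested genes lay above and 12.4% below. Since RNA of a whole tissue was measured, fewer cells that express a gene and less of its RNA per cell cannot be told apart.

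**Figure D1:**
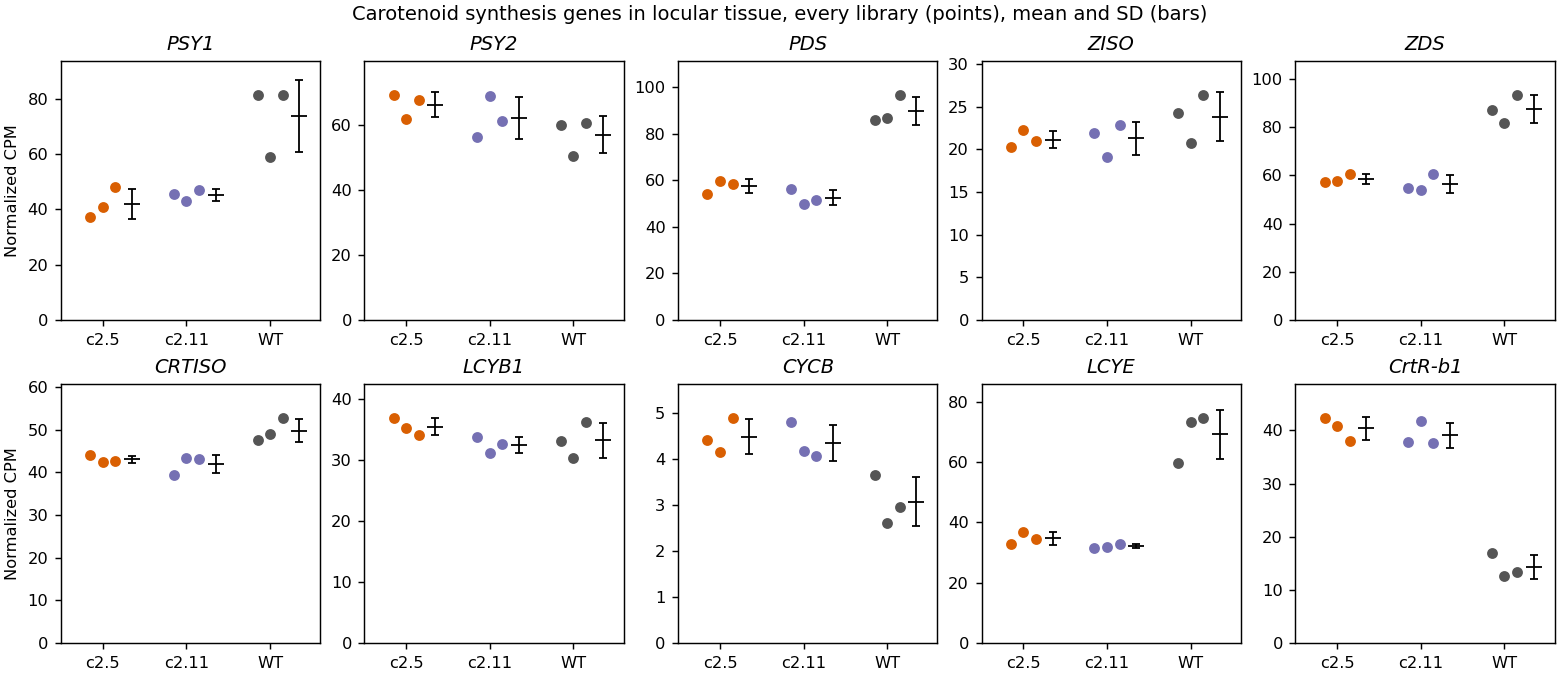
Normalized CPM (TMM-scaled) of the 10 carotenoid synthesis genes in every library of c2.5, c2.11 and WT, with a panel and an axis from 0 for each gene. Points are libraries and bars are the mean with SD over 3 libraries; CrtR-b1 lies at 37.6 to 42.3 CPM in the lines and at 12.7 to 17.0 CPM in WT, and LCYE at 31.6 to 36.8 CPM in the lines and at 59.9 to 74.7 CPM in WT.

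The 2 phytoene synthase genes parted. PSY1 (Solyc03g031860.3, chromosome 3), the copy known for carotenoid synthesis in ripening tomato fruit, had 37.4, 40.9 and 48.0 CPM in c2.5, 45.7, 42.9 and 47.0 CPM in c2.11, and 81.4, 58.8 and 81.4 CPM in WT. With TMM scaling all 6 line libraries lay below all 3 WT libraries, and WT replicate 2 was the WT library closest to the lines. Its means were 42.1 ± 5.43 CPM in c2.5, 45.2 ± 2.13 CPM in c2.11 and 73.9 ± 13.0 CPM in WT (SD, n = 3 each). PSY1 fell by 0.76 ± 0.11 (SE) on the log2 scale, which is 1.69-fold lower (edgeR adjusted p = 3.09e-04). With total count scaling it was at -0.48 and still called (edgeR adjusted p = 0.00517), but the lines and WT then overlapped. PSY2 (Solyc02g081330.4, chromosome 2), the copy known for green tissue, had 69.2, 61.8 and 67.8 CPM in c2.5, 56.2, 69.0 and 61.1 CPM in c2.11, and 60.0, 50.4 and 60.6 CPM in WT. The genotypes overlapped, with c2.11 replicate 1 below WT replicates 1 and 3. The log2 fold change of PSY2 was 0.17 ± 0.08 (SE), with a 95% interval from 0.0017 to 0.34, and it was not called (edgeR adjusted p = 0.0784). Without c2.11 replicate 1 it was called, at 0.21 (edgeR adjusted p = 0.0371), and without WT replicate 2 it was 0.091 (edgeR adjusted p = 0.334). Total count scaling gave 0.45 and a call (edgeR adjusted p = 3.73e-04), with no overlap between the lines and WT.

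Because both counts come from one library, their ratio does not depend on how libraries are scaled. The PSY2 count was 1.85, 1.51 and 1.41 times the PSY1 count in c2.5, 1.23, 1.61 and 1.30 times in c2.11, and 0.737, 0.856 and 0.744 times in WT. In every line library PSY2 had the larger count, and in every WT library PSY1 did. The mean ratio in c2.5 was 2.04 times, and in c2.11 1.77 times, the mean ratio in WT. Counts are not divided by gene length here, so only the change of such a ratio between genotypes can be read, not which gene has more RNA. The pairs set in ratio were picked after the values were seen, and no test was run on them.

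Among the 4 desaturation and isomerization genes, both desaturases fell, the isomerase CRTISO fell by less except under total count scaling, where it was at 0.051 and not called, and ZISO was not called. PDS (Solyc03g123760.3, chromosome 3), phytoene desaturase, had 54.0, 59.6 and 58.6 CPM in c2.5, 56.1, 49.9 and 51.3 CPM in c2.11, and 85.8, 86.9 and 96.7 CPM in WT. The highest line library stood well below the lowest WT library. PDS fell by 0.71 ± 0.06 (SE) on the log2 scale, 1.64-fold lower (edgeR adjusted p = 3.42e-07). ZDS (Solyc01g097810.3, chromosome 1), zeta-carotene desaturase, had 57.1, 57.5 and 60.7 CPM in c2.5, 54.8, 54.0 and 60.5 CPM in c2.11, and 87.4, 81.9 and 93.5 CPM in WT. Here too the line libraries kept a narrow range under all WT libraries. ZDS fell by 0.61 ± 0.06 (SE) on the log2 scale, 1.52-fold lower (edgeR adjusted p = 1.01e-06).

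The isomerase genes were closer to WT. CRTISO (Solyc10g081650.2, chromosome 10), the carotenoid isomerase whose loss gives the orange tangerine fruit of tomato, had 44.1, 42.3 and 42.8 CPM in c2.5, 39.4, 43.3 and 43.1 CPM in c2.11, and 47.6, 49.0 and 52.8 CPM in WT. The line libraries lay below the WT libraries by a small margin. CRTISO fell by 0.23 ± 0.05 (SE) on the log2 scale, 1.17-fold lower (edgeR adjusted p = 0.00217), a direction that total count scaling turned to 0.051 (edgeR adjusted p = 0.367). ZISO (Solyc12g098710.2, chromosome 12), the 15-cis-zeta-carotene isomerase, had 20.2, 22.2 and 21.0 CPM in c2.5, 22.0, 19.1 and 22.8 CPM in c2.11, and 24.3, 20.7 and 26.4 CPM in WT. WT replicate 2 lay inside the range of the lines, and the other WT libraries lay above it. The log2 fold change of ZISO was -0.17 ± 0.08 (SE), with a 95% interval from -0.34 to 0.01, and was not called (edgeR adjusted p = 0.102). Leaving out WT replicate 2 gave -0.25 and a call (edgeR adjusted p = 0.0173), leaving out WT replicate 3 gave -0.086 (edgeR adjusted p = 0.432), and total count scaling gave 0.11 with no call.

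At the fork after lycopene, LCYE fell, CYCB rose and LCYB1 was not called, although LCYB1 was called higher under total count scaling. LCYE (Solyc12g008980.3, chromosome 12), the epsilon-cyclase of the lutein branch, had 32.8, 36.8 and 34.4 CPM in c2.5, 31.6, 32.0 and 32.8 CPM in c2.11, and 59.9, 73.3 and 74.7 CPM in WT. The lines sat close together and far below WT, whose replicate 1 was its lowest library. Mean levels were 34.7 ± 2.00 CPM in c2.5, 32.1 ± 0.609 CPM in c2.11 and 69.3 ± 8.20 CPM in WT (SD, n = 3 each). LCYE fell by 1.05 ± 0.07 (SE) on the log2 scale, 2.08-fold lower (edgeR adjusted p = 4.72e-08). Of all tested genes, 7.19% fell at least as far.

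LCYB1 (Solyc04g040190.1, chromosome 4), a beta-cyclase of green tissue, was not called with TMM scaling. It had 36.9, 35.2 and 34.1 CPM in c2.5, 33.7, 31.1 and 32.5 CPM in c2.11, and 33.1, 30.3 and 36.1 CPM in WT, and all genotypes overlapped. Its log2 fold change was 0.032 ± 0.061 (SE), and the 95% interval of -0.10 to 0.17 leaves room for a small change in either direction (edgeR adjusted p = 0.684). Under total count scaling it was 0.31 and called (edgeR adjusted p = 7.36e-04), with all line libraries above all WT libraries. CYCB (Solyc06g074240.3, chromosome 6), the chromoplast beta-cyclase known from the Beta fruit of tomato, was the member with the fewest counts. It had 4.41, 4.16 and 4.89 CPM in c2.5, 4.79, 4.17 and 4.06 CPM in c2.11, and 3.64, 2.61 and 2.96 CPM in WT. These rest on 88 to 106 counts a library in c2.5, 87 to 103 in c2.11 and 46 to 67 in WT. All line libraries lay above all WT libraries, with WT replicate 1 the nearest. CYCB rose by 0.52 ± 0.14 (SE) on the log2 scale, 1.43-fold higher (edgeR adjusted p = 0.00677).

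Set against LCYE, both beta-cyclase genes had a higher count ratio in the lines. The LCYB1 count averaged 1.02 ± 0.0872 times the LCYE count in c2.5, 1.01 ± 0.0489 times in c2.11 and 0.483 ± 0.0693 times in WT (SD, n = 3 each). That ratio was 2.12 times the WT mean in c2.5 and 2.09 times in c2.11. The CYCB to LCYE ratio averaged 0.130 ± 0.0151 in c2.5, 0.135 ± 0.0144 in c2.11 and 0.0454 ± 0.0136 in WT, 2.86 times the WT mean in c2.5 and 2.98 times in c2.11. Neither ratio overlapped between the line and the WT libraries. Both pairs were picked after LCYE was seen to fall, so this separation is no separate result.

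**Figure D2:**
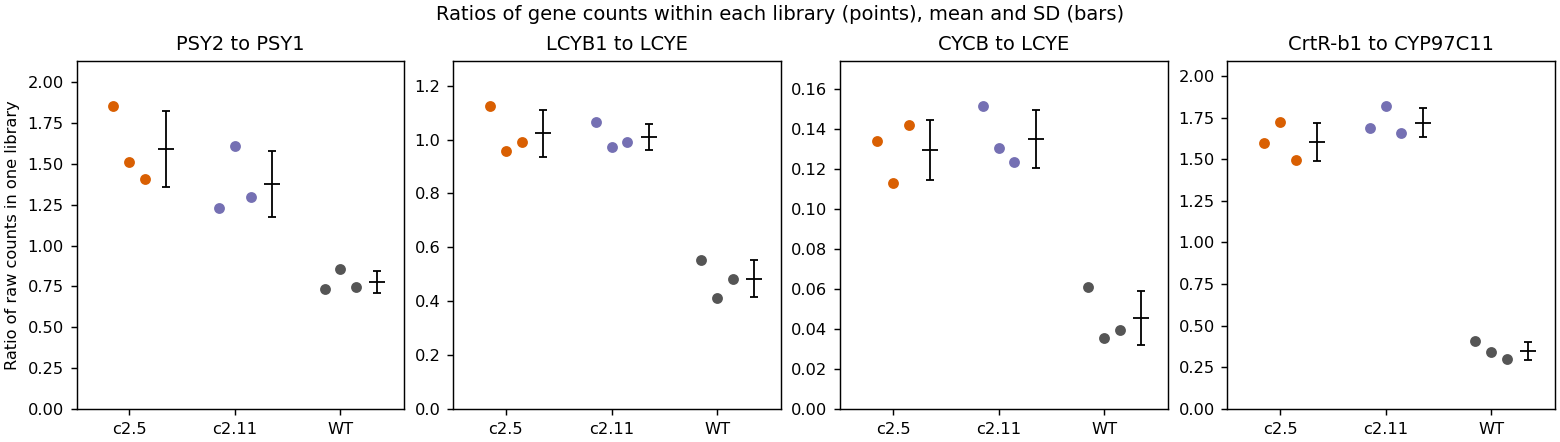
Ratio of the raw counts of a pair of genes within each library of c2.5, c2.11 and WT, with an axis from 0 for each pair. Points are libraries and bars are the mean with SD over 3 libraries. In all 4 pairs every line library lies above every WT library. The pairs were picked after the values were seen, each over a gene that fell, and no test was run. The CrtR-b1 to CYP97C11 ratio averages 1.60 in c2.5, 1.72 in c2.11 and 0.350 in WT.

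CrtR-b1 (Solyc06g036260.3, chromosome 6), the beta-ring hydroxylase known for green tissue, which turns beta-carotene into zeaxanthin, had 42.3, 40.8 and 37.9 CPM in c2.5, 37.8, 41.8 and 37.6 CPM in c2.11, and 17.0, 12.7 and 13.3 CPM in WT. The lowest line library held more than the highest WT library by a wide margin. Its means were 40.4 ± 2.23 CPM in c2.5, 39.1 ± 2.38 CPM in c2.11 and 14.3 ± 2.31 CPM in WT (SD, n = 3 each). CrtR-b1 rose by 1.47 ± 0.09 (SE) on the log2 scale, 2.77-fold higher (edgeR adjusted p = 3.25e-08). Of all tested genes, 3.65% rose at least as far. CYP97C11, a cytochrome P450 that hydroxylates the epsilon ring on the way to lutein, went the other way, with means of 25.2 CPM in c2.5, 22.7 CPM in c2.11 and 41.0 CPM in WT. It fell by 0.78 ± 0.06 (SE) on the log2 scale (edgeR adjusted p = 2.90e-07). The CrtR-b1 to CYP97C11 ratio, picked after the values were seen, was 4.58 times the WT mean in c2.5 and 4.92 times in c2.11. CD1, a cutin synthase of the epidermis, rose in the same libraries, at 38.6 CPM in c2.5, 51.9 CPM in c2.11 and 21.5 CPM in WT (log2 fold change 1.06 ± 0.20 SE, edgeR adjusted p = 0.00240). The cuticle regulator CD2 was not called at 0.039 (edgeR adjusted p = 0.567). Another epidermis marker, which has no symbol in RefSeq, was called higher at 0.49 (edgeR adjusted p = 0.00814). CER6, with 1 to 55 counts a library, was not tested.

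Each line was also tested on its own. The 2 comparisons use the same 3 WT libraries, so they are not independent. Of the 10 genes, 2 rose and 5 fell in c2.5, where 49.9% of all tested genes were called (24.9% higher, 25.1% lower). In c2.11 2 rose and 5 fell as well, where 54.6% of all tested genes were called (27.3% higher, 27.3% lower). LCYE fell in both, with log2 fold changes of -1.11 ± 0.08 (SE) in c2.11 and -0.998 ± 0.081 (SE) in c2.5. CrtR-b1 rose by 1.45 ± 0.10 (SE) in c2.11 and by 1.49 ± 0.10 (SE) in c2.5. For PSY1 the decrease measured -0.71 ± 0.13 (SE) in c2.11 and -0.81 ± 0.13 (SE) in c2.5. CYCB rose by 0.50 ± 0.16 (SE) in c2.11 and by 0.54 ± 0.16 (SE) in c2.5 (edgeR adjusted p = 0.0183 and 0.0124). The c2.11 call did not hold when its own replicate 1 was set aside (edgeR adjusted p = 0.0738), nor without WT replicate 2 (edgeR adjusted p = 0.0713) or 3 (edgeR adjusted p = 0.05295). The c2.5 call was lost without c2.5 replicate 3 or WT replicate 2 (edgeR adjusted p = 0.0533 and 0.0508). PSY2 in c2.5, at 0.22 ± 0.09 (SE), just missed the threshold (edgeR adjusted p = 0.0596) and was called without c2.5 replicate 2, c2.11 replicate 1 or c2.11 replicate 2 (edgeR adjusted p = 0.0460, 0.0475 and 0.0398). It was also called at 0.50 with total count scaling (edgeR adjusted p = 5.09e-04), without the filter on low counts (edgeR adjusted p = 0.0442) and with c2.5 and WT alone in the fit (edgeR adjusted p = 0.0420), and stood at 0.14 without WT replicate 2 (edgeR adjusted p = 0.202).

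**Figure D3:**
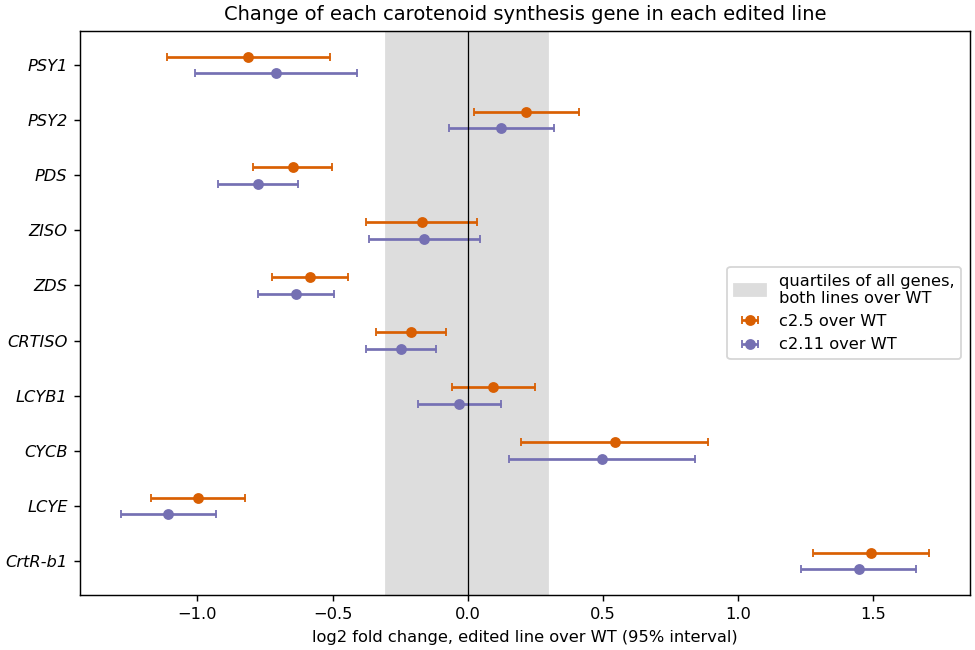
Log2 fold change of the 10 genes in c2.5 over WT and in c2.11 over WT, with 95% intervals from edgeR's fit (libraries scaled by TMM). The grey band spans the lower to the upper quartile of all tested genes in the comparison of both lines with WT, -0.30 to 0.30, where the quartiles are -0.30 and 0.29 for c2.5 alone and -0.33 and 0.32 for c2.11 alone; PSY1, PDS, ZDS and LCYE lie below it and CYCB and CrtR-b1 above it in both lines, and total count scaling moves all points to the right and turns the directions of ZISO and CRTISO in both lines and of LCYB1 in c2.11.

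None of the 10 genes was called different between the lines. With c2.11 set against c2.5, edgeR called 0 of 10, with 0 at an unadjusted p under 0.05 and 0 called by DESeq2, where edgeR called 1.29% of all tested genes. The lowest edgeR adjusted p was 0.406. The 95% intervals of the log2 differences ran from -0.38 to 0.41 at the widest, so differences of that size are not shut out for every gene. For PSY1 the log2 difference was 0.10 with an interval from -0.20 to 0.41, and for CYCB it was -0.05 with an interval from -0.38 to 0.28.

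How libraries are scaled matters for the smaller changes. The TMM factors were 1.05 to 1.08 in the 6 line libraries and 0.857 to 0.911 in the WT libraries, at nearly equal totals. With total counts in place of TMM, the median log2 fold change of all tested genes was 0.29, and 10754 genes (55.6%) were called higher and 2940 (15.2%) lower. Under that scaling 4 of the 10 carotenoid genes were called higher (PSY2, LCYB1, CYCB and CrtR-b1) and 4 lower (PSY1, PDS, ZDS and LCYE). LCYE then stood at -0.77, PSY1 at -0.48, PDS at -0.43 and ZDS at -0.33, while CrtR-b1 stood at 1.74 and CYCB at 0.79 on the log2 scale. PSY1 and CRTISO then overlapped between groups, PSY1 at 51.5 CPM in c2.5 replicate 3 and 51.2 CPM in WT replicate 2. Relative to the median gene, ZISO was at -0.17, CRTISO at -0.23 and LCYB1 at 0.024. Taking off the median brings back the TMM assumption that most genes keep their level. These values are therefore no separate check on the directions.

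**Figure D4:**
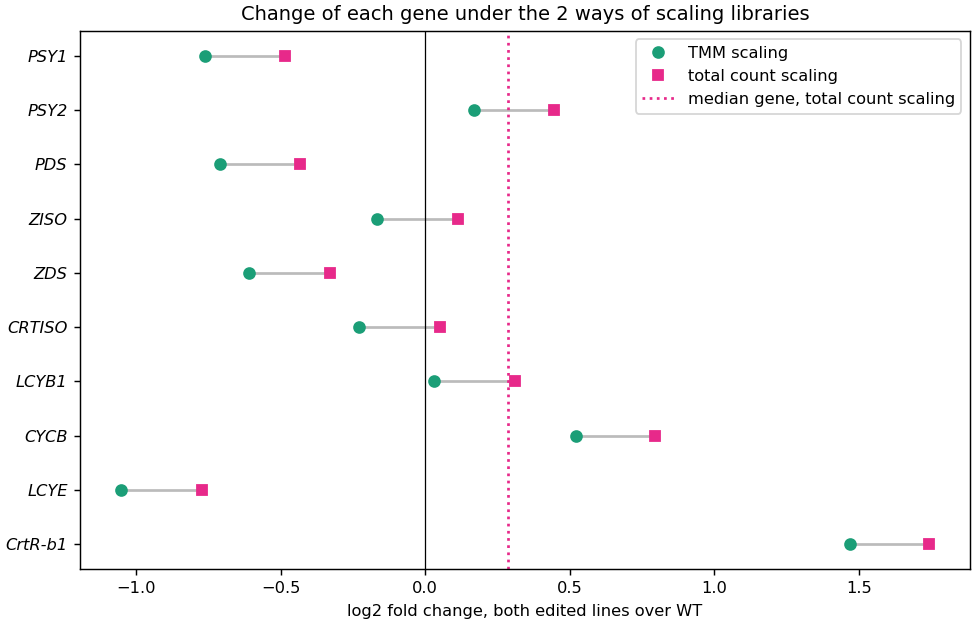
Log2 fold change of the 10 genes in both edited lines over WT, with libraries scaled by TMM (circles) and by total counts (squares); the dotted line marks the median of all tested genes under total count scaling, 0.29. ZISO and CRTISO change sides of 0 between the scalings, while LCYE, PSY1, PDS and ZDS stay below 0 and CrtR-b1 and CYCB above it.

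Across the 9 libraries, the members were also set beside one another by shape, as the root mean square difference of log2 CPM around each gene's mean, a description without a test. This difference includes the shift between the lines and WT, so genes with like fold changes come out close. It was taken among the members only, with no other genes for comparison. PDS and ZDS, successive desaturases, were the closest pair at 0.0963. PSY1 was nearest to ZDS at 0.148, and LCYE nearest to PDS at 0.179. ZISO and CRTISO were nearest to each other at 0.123, and PSY2 and LCYB1 at 0.129. CYCB was nearest to PSY2 at 0.220. CrtR-b1 stood apart, with its nearest member CYCB at 0.467 and its farthest, LCYE, at 1.21. The spread between libraries of a genotype, as SD in percent of the mean, was 1.90% (LCYE in c2.11) to 12.9% (PSY1 in c2.5) in the lines and 5.42% (CRTISO) to 17.7% (PSY1) in WT.

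The genes around the core route fell more often than they rose. Of a list of 30 genes that supply precursors, use the products or assist the core steps, 26 could be tested, and with both lines set against WT 3 rose, 18 fell and 5 were not called, where 28.5% of all tested genes were called higher and 28.6% lower. The median log2 fold change of the 26 was -0.47, against 0.01 for all tested genes. Under total count scaling 5 of the 26 (19.2%) were called higher and 11 (42.3%) lower, where 55.6% of all tested genes were called higher and 15.2% lower. In c2.5, 3 rose and 16 fell, where 24.9% of all tested genes were called higher and 25.1% lower. In c2.11, 3 rose and 18 fell, where each direction held 27.3% of all tested genes. That scaling moved several of the log2 fold changes given below by over 1.5 times without ending the call: DXR stood at -0.51, HDS at -0.31, CYP97C11 at -0.50, VDE at -0.38 and PTOX at 0.71. Between the lines edgeR called 0 of the 26, with 0 at an unadjusted p under 0.05 and 0 called by DESeq2. Of the list, 22 genes could be named from the reference table and the other 8, among them those listed as PSY3 and LCYB2, are only counted. HDR, IDI1, ZEP, GGPS2 and CrtR-b2 are described by rule, and the other named genes were chosen after their values were seen.

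The methylerythritol phosphate (MEP) pathway, the plastid route to the C5 units of all carotenoids, fell in 7 of its 8 tested genes, or in 5 with 1 rising under total count scaling. Of all tested genes, 28.6% were called lower, or 15.2% lower and 55.6% higher under total count scaling. HDR, its last enzyme, had 355 ± 20.3 CPM in c2.5, 338 ± 25.2 CPM in c2.11 and 985 ± 120 CPM in WT (SD, n = 3 each). It fell by 1.51 ± 0.07 (SE) on the log2 scale, 2.84-fold lower (edgeR adjusted p = 8.16e-09). CMK fell by 0.96, DXR by 0.79 and HDS by 0.59 on the log2 scale (edgeR adjusted p = 2.74e-07, 7.00e-08 and 6.56e-06). DXS1, which opens the route, fell by 0.27 (edgeR adjusted p = 0.00209), but was at 0.0079 under total count scaling. The call of DXS2, at -0.46 (edgeR adjusted p = 0.0356), was lost when any of 6 single libraries was left out: each of c2.5, replicate 1 of c2.11, and replicates 2 and 3 of WT, with -0.35 without WT replicate 2 (edgeR adjusted p = 0.145). It was also lost under total count scaling, at -0.18 (edgeR adjusted p = 0.285), without the filter on low counts (edgeR adjusted p = 0.0669) and with the replicate number as a block (edgeR adjusted p = 0.0683).

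In the prenyl supply step that follows, 1 of 4 tested genes rose and 3 fell, where 28.5% of all tested genes were called higher and 28.6% lower. Under total count scaling 1 rose and 2 fell, where 55.6% and 15.2% of all tested genes did. IDI1, an isopentenyl diphosphate isomerase that interconverts the C5 units, fell the farthest of all the genes listed. It had 180.5, 169.8 and 162 CPM in c2.5, 166, 161 and 141 CPM in c2.11, and 1162, 2008 and 1410 CPM in WT. The WT libraries differed from each other by more than the line libraries did, and the groups were far apart. IDI1 fell by 3.22 ± 0.16 (SE) on the log2 scale, 9.35-fold lower (edgeR adjusted p = 8.83e-07), and 0.945% of all tested genes fell at least as far. Its paralog IDI2 fell by 0.38 (edgeR adjusted p = 0.00893), which was -0.096 and not called under total count scaling and -0.22, still called, without WT replicate 2 (edgeR adjusted p = 0.0209). GGPS2, a geranylgeranyl diphosphate synthase that makes the direct substrate of phytoene synthase, went against them, at 17.0 ± 0.886 CPM in c2.5, 16.8 ± 1.98 CPM in c2.11 and 10.9 ± 0.384 CPM in WT (SD, n = 3 each). It rose by 0.63 ± 0.08 (SE) on the log2 scale (edgeR adjusted p = 2.91e-05). GGPS1 had 0 to 2 counts in each library and was not tested.

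Of the paralogs and cofactors, PTOX, the plastid terminal oxidase that takes up electrons from the desaturases, rose by 0.43 ± 0.11 (SE) on the log2 scale, with means of 7.85 CPM in c2.5, 8.50 CPM in c2.11 and 6.05 CPM in WT (edgeR adjusted p = 0.00366). CRTISO-L1, a relative of CRTISO, fell by 0.48 ± 0.10 (SE) on the log2 scale (edgeR adjusted p = 0.00113), a call that total count scaling ended (edgeR adjusted p = 0.0904). The third tested gene of this group was not called, and under total count scaling 2 of the 3 were higher and 0 lower, where 55.6% and 15.2% of all tested genes were.

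All 5 xanthophyll genes beside CrtR-b1 were called lower, and 3 of them were under total count scaling, against 28.6% and 15.2% of all tested genes. ZEP, which epoxidizes zeaxanthin to violaxanthin, had 48.6, 43.7 and 47.3 CPM in c2.5, 43.0, 44.0 and 44.7 CPM in c2.11, and 90.3, 90.7 and 118 CPM in WT. No line library came near the lowest WT library. ZEP fell by 1.14 ± 0.08 (SE) on the log2 scale, 2.21-fold lower (edgeR adjusted p = 2.12e-07). VDE, which runs the reverse reaction in strong light, fell by 0.66 ± 0.06 (SE), with means of 33.1 CPM in c2.5, 32.2 CPM in c2.11 and 51.5 CPM in WT (edgeR adjusted p = 2.25e-06). The P450 hydroxylase CYP97A29 fell by 0.33 ± 0.06 (SE) (edgeR adjusted p = 5.26e-04), and was at -0.046 with no call under total count scaling. CrtR-b2, the flower paralog of CrtR-b1, had 9, 11 and 15 counts in c2.5, 14, 7 and 7 counts in c2.11, and 16, 15 and 14 counts in WT. Its call, at -0.79 ± 0.30 (SE) (edgeR adjusted p = 0.0397), was lost when any single library was left out except c2.5 replicate 3 and c2.11 replicate 1. DESeq2 (adjusted p = 0.120), total count scaling, the fit with no filter on low counts and the replicate block ended it as well (edgeR adjusted p = 0.145, 0.0644 and 0.0604).

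Of the enzymes that cut carotenoids, 1 of 6 tested genes was higher, 2 were lower and 3 were not called, near the 57.1% of all tested genes called. Under total count scaling 1 was higher and 1 lower, where 55.6% and 15.2% of all tested genes were. NCED2, a 9-cis-epoxycarotenoid dioxygenase of abscisic acid synthesis, had 60.3, 66.1 and 71.6 CPM in c2.5, 65.3, 65.0 and 67.0 CPM in c2.11, and 32.5, 26.5 and 41.4 CPM in WT. The lines did not overlap with WT. NCED2 rose by 0.98 ± 0.12 (SE) on the log2 scale, 1.97-fold higher (edgeR adjusted p = 9.89e-05). NCED1, its paralog, had 16.6, 15.2 and 15.4 CPM in c2.5, 10.6, 11.3 and 13.3 CPM in c2.11, and 8.26, 8.46 and 17.8 CPM in WT, with WT replicate 3 above all line libraries. It was not called at 0.24 ± 0.25 (SE) (edgeR adjusted p = 0.435), and without WT replicate 3 it was called at 0.70 (edgeR adjusted p = 1.57e-04). It stood at 0.052 without WT replicate 1, at 0.068 without WT replicate 2 and at 0.53 under total count scaling, uncalled in each. CCD1B, whose product cuts carotenoids to volatile apocarotenoids, fell by 0.88 ± 0.05 (SE), with means of 75.3 CPM in c2.5, 71.9 CPM in c2.11 and 135 CPM in WT (edgeR adjusted p = 1.88e-08). CCD1A fell by 0.25 (edgeR adjusted p = 5.25e-04), and was at 0.031 with no call under total count scaling. CCD1A and CCD1B are neighbouring similar copies, and how reads were split between them is not known, so their separate values are uncertain.

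**Figure D5:**
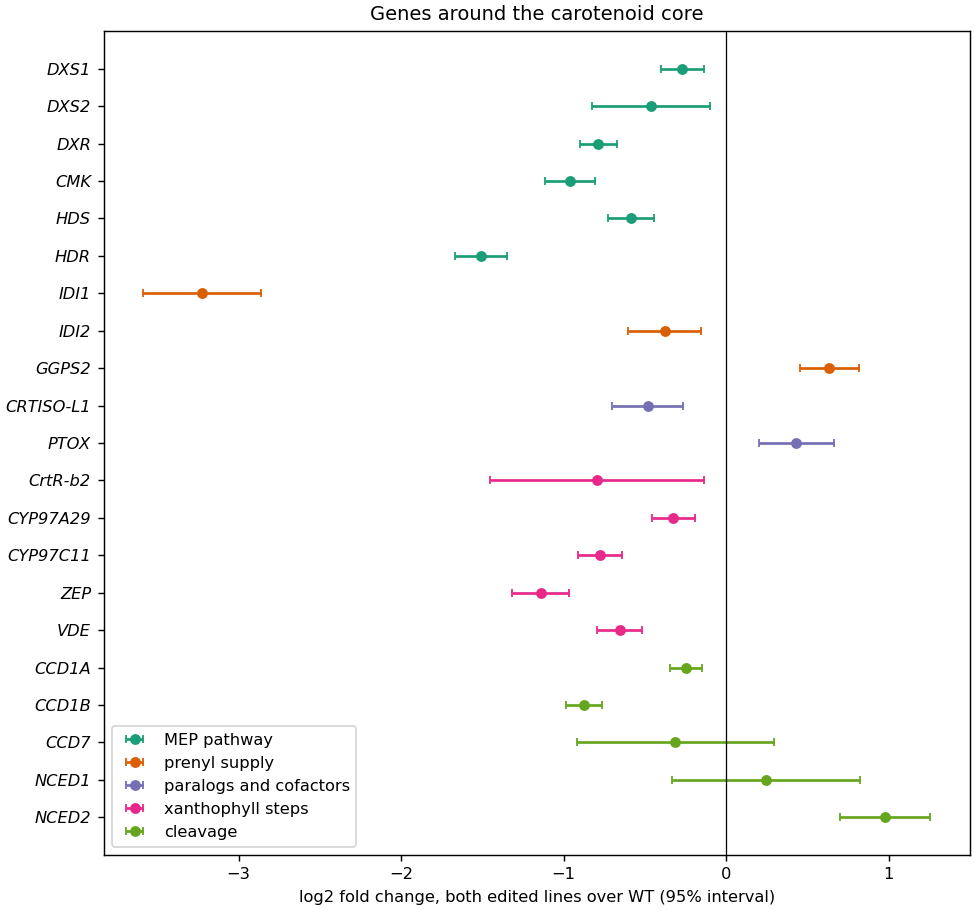
Log2 fold change of the named genes around the carotenoid core in both edited lines over WT, with 95% intervals from edgeR's fit (libraries scaled by TMM), coloured by step. IDI1 at -3.22, HDR at -1.51 and ZEP at -1.14 lie farthest to the left and NCED2 at 0.98 farthest to the right; with total count scaling DXS1 and CCD1A change sides of 0.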

How the data were processed

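RNA of 9 locular tissue libraries was read as stranded pairs of 150 bases, per the labels' protocols. The authors deposited raw counts per gene, made with featureCounts after FastQC, per the submitters' processing notes. For the aligner, build, annotation and use of strand, settings were not given in the sources used here. Coordinates are therefore left out, and reads of overlapping, antisense or similar genes cannot be told apart.

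Libraries were grouped by title. Counts of 19358 genes kept by filterByExpr entered the quasi-likelihood test of edgeR 4.0.16, run in R 4.3.3 (TMM, robust glmQLFit over all 9 libraries, glmQLFTest, Benjamini-Hochberg adjustment over all tested genes, threshold 0.05), for both lines, c2.5 and c2.11 against WT and for c2.11 against c2.5. The SE is the log2 fold change divided by the square root of F. The fit was also run on simulated data in which few genes were changed, in either direction. That run does not probe the TMM assumption for data where 57.1% of all tested genes were called.

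The members and lists were chosen with earlier results of these data known. The named genes are the 10 members, listed genes called with a log2 size of at least 1, and GGPS2, ZEP and CrtR-b2, with any others said to be chosen later. Names were used where the RefSeq symbol (assembly SLM_r2.1) taken for the gene lies on the chromosome that the identifier carries. This held for 10 of 10 members and 22 of 30 listed genes. Some symbols differ from the names used here: CYCB is listed as NSY with Cyc-B as a synonym, LCYB1 as LCY1 and LCYE as CRTL-E-1. The pairing of Solyc07g053570 with SlZFP2 comes from general knowledge and is uncertain. No sequences are shown.

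Alternatives were DESeq2 1.42.0, median-of-ratios and total count scaling, other filters (none, or 1 CPM in 6 libraries), fits on the compared genotypes, the replicate number as a block, and each library left out.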

Additional observations from a re-analysis of the deposited data

How the results depend on the processing

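Across the alternatives, 7 to 8 of the 10 carotenoid genes were called with both lines set against WT, 6 to 8 for c2.5 alone and 6 to 8 for c2.11 alone. Total count scaling turned the log2 fold changes of ZISO to 0.11 (0.11 for c2.5, 0.11 for c2.11), of CRTISO to 0.051 (0.075 for c2.5, 0.028 for c2.11), of LCYB1 in c2.11 to 0.24, of DXS1 to 0.0079 and of CCD1A to 0.031. Of these, the value of LCYB1 in c2.11 was called. Leaving out single libraries gave LCYB1 -0.027 (without WT replicate 2) to 0.097 with both lines, and -0.090 to 0.034 (without WT replicate 3) in c2.11. It gave, for c2.11 set against c2.5, -0.042 to 0.083 for ZISO, -0.061 to 0.0051 for CRTISO and -0.12 to 0.020 for CYCB, all uncalled. Apart from the shift that the scaling itself brings, the cause was not tested.

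Between the lines 249 genes were called by edgeR, 442 by DESeq2, 626 when the fit held these genotypes alone, and 70 to 356 when a library was left out. The counts were 70, 92 and 80 without c2.5 replicates 1, 2 and 3, and 112, 87 and 123 without c2.11 replicates 1, 2 and 3. In the fit of these genotypes alone 1 listed gene, NCED1, was called between them (-0.42, edgeR adjusted p = 0.0304).

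With the replicate block, 10888 genes were called for both lines, 9513 for c2.5, 10390 for c2.11 and 217 between the lines. The members called were then 7, 7, 7 and 0, and the listed genes 19, 19, 19 and 0. In their deviations from the genotype mean, same-numbered libraries correlated at r from -0.27 to 0.23 and differently numbered ones at -0.26 to 0.35. With 3 libraries per genotype, these values cannot decide whether the numbers pair samples. Among the named genes the block ended the calls of DXS2 and CrtR-b2 with both lines (edgeR adjusted p = 0.0683 and 0.0604). The filter of 1 CPM in 6 libraries removed CrtR-b2. At this depth GGPS1, with 0 to 2 counts a library, could not be tested.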
